A study of Mus musculus with 12 samples.

Results

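Tissue macrophages of the kidney were followed through 10 genes: the complement genes C1qa, C1qb and C1qc, the surface receptors Adgre1 (F4/80), Csf1r and Cd14, the lysosomal and secreted proteins encoded by Cd68 and Lyz2, and both ligands of the CSF1 receptor, Il34 and Csf1. They were taken by name, as 10 of the 32199 genes in the table of the PAD4 set and 10 of the 31719 in that of the IL-33 set, and all 10 passed the filter on low values (a mean of at least 0.5 FPKM, the fragments of a transcript scaled by its length and by all mapped fragments) in both tables. Adgre1 passed it only through the group where it is high, in each table, and counts that include it are descriptions. The data are bulk RNA-seq of kidney from 12 male mice aged 8 weeks, in 4 groups of 3 libraries. Wild-type C57BL/6 mice and Padi4 knockout mice, which lack the histone-citrullinating enzyme PAD4 needed for neutrophil extracellular traps, form the PAD4 set (batch 1 in the labels). Other wild-type mice and Il33 knockout mice, IL-33 being an alarmin cytokine, form the IL-33 set (batch 2). Every mouse of all 4 groups had contrast-induced kidney injury: 1 kidney was removed, and after 3 weeks of recovery and 24 h without water the mouse received intraperitoneal furosemide, a loop diuretic, and 20 min later the iodinated contrast agent iodixanol by tail vein. The kidney was taken 24 h after that. No group without injury is among the samples, so each change below is between injured kidneys, and each knockout was compared with the wild type of its own set only.

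Macrophages of the kidney lie between the tubules and depend on the receptor tyrosine kinase CSF1R, which is bound by CSF1 and by IL-34; in the kidney, tubular epithelium is a known source of both ligands. Resident macrophages of mice are commonly recognised by F4/80 and by high expression of the C1q chains, of which the products of C1qa, C1qb and C1qc together form the recognition part of complement component C1. CD14 is the co-receptor that hands lipopolysaccharide to Toll-like receptor 4, CD68 is a glycoprotein of the lysosome, and Lyz2 encodes lysozyme. Cd14, Cd68, Lyz2 and the ligands are not restricted to macrophages.

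RefSeq's mouse promoter table (build GRCm38.p6) held 5 of the 10 genes, C1qb, C1qc, Cd68, Lyz2 and Csf1. The stretches below are shown because C1qb, C1qc and Lyz2 rose in the libraries labelled IL-33 knockout while Cd68 fell. The PAD4 set had no such split: Lyz2 and Cd68 both fell in its knockout, and C1qb and C1qc did not pass the test. Capitals mark, in the first 3 sequences, the letters AGGAAGT read on the other strand (an ETS core bound by PU.1, the myeloid transcription factor encoded by Spi1) and, in the Cd68 sequence, TGANTCA (AP-1). All are on the minus strand and are written 5′ to 3′ in the direction of the gene.
C1qb (chr4:136886211-136886290, 90 to 11 bases before the start): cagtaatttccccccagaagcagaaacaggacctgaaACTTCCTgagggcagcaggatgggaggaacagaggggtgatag
C1qc (chr4:136893067-136893146, 232 to 153 bases before the start): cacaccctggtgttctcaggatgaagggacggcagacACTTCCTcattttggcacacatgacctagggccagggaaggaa
Lyz2 (chr10:117282330-117282409, 137 to 58 bases before the start): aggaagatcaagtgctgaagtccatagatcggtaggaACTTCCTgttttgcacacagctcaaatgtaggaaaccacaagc
Cd68 (chr11:69666178-69666329, 159 to 8 bases before the start): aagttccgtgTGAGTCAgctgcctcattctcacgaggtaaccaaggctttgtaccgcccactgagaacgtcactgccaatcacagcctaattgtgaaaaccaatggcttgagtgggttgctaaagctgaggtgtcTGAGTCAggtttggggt
In the 250 bases before each start, searched on both strands, AGGAAGT occurred 1 time in each of C1qb, C1qc and Lyz2 and 0 times in Cd68 and Csf1. TGANTCA occurred 2 times in Cd68 and 0 times in the other 4. Of 32851 promoters of the same length, 7.69% held AGGAAGT and 6.75% held TGANTCA. The letters of both motifs do not overlap in these stretches, and the motifs were chosen after the sequences had been seen. A match describes the sequence and is not a binding site.

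The libraries were checked before the members. FPKM summed to 700601 to 812981 per library in the PAD4 set and 385124 to 420279 in the IL-33 set, with mitochondrial transcripts at 52.0% to 60.0% and 24.1% to 29.2% of the sum, and sequencing depth cannot be read from FPKM. For Padi4 the wild-type libraries read 0.704, 1.06 and 1.67 FPKM and the PAD4 knockout libraries 0.217, 0.497 and 0.187 FPKM, a change of -0.71 ± 0.19 (SE) on the log2(FPKM + 1) scale with a limma adjusted p of 0.0147. Without wild-type library 3 the adjusted p was 0.0752, and without knockout library 3 it was 0.0590. Padi4 was tested only through the wild type (mean 1.15 FPKM), as the knockout mean of 0.301 FPKM is under the filter. With no filter its limma adjusted p was 0.162, and under eBayes with no trend it was 0.0579. Il33 did not pass the test in its own set: wild-type libraries read 1.71, 1.13 and 3.64 FPKM and those labelled IL-33 knockout 1.14, 0.616 and 1.02 FPKM (-0.65 ± 0.28, adjusted p = 0.0990; 0.0350 if wild-type library 2 is left out). Il33 did fall in the PAD4 knockout, where the wild types read 3.57, 5.29 and 3.28 FPKM and the knockouts 0.889, 1.58 and 1.28 FPKM (-1.15 ± 0.23, adjusted p = 0.00208), a call that held in each of the 6 fits that leave out a library but not with no filter (adjusted p = 0.0970). Whether the remaining Padi4 and Il33 reads come from outside the deleted parts was not tested, so both knockouts are known by their labels only. The IL-33 group, where Il33 did not pass, is called the labelled knockout. Proximal tubule markers, which define kidney cortex, summed to 4797 to 24726 FPKM in the PAD4 set and 9672 to 16293 FPKM in the IL-33 set. The PAD4 set, labelled kidney, also held colon and Paneth cell markers (11 genes, 557.8 to 939 FPKM summed per wild-type library, 63.2 to 298 per knockout library) and lung epithelium markers (8 genes, 296 to 845 and 42.5 to 208 FPKM). All 11 and all 8 of them fell in the knockout, and all 6 smooth muscle genes and 5 of 6 fibroblast genes fell with them, while 8 of 8 tested proximal tubule genes rose. For the IL-33 set, the 7 colon genes listed summed to 0.0779 to 5.35 FPKM and the 4 lung genes to 0.386 to 4.07 FPKM. Lung and colon hold macrophages of their own. Of the 10 genes followed here, 4 fell in the PAD4 knockout as these markers did, 0 rose and 6 did not pass. The part of lung and colon tissue in the results below was not tested.

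In the PAD4 set, 4 of the 10 genes fell in the knockout (Lyz2, Cd14, Cd68 and Adgre1), 0 rose and 6 did not pass. Over all 13986 genes tested, 8.79% were called lower and 8.89% higher (17.7% in either direction). The groups did not overlap for 4 of the 10, all lower in the knockout (Lyz2, Cd14, Adgre1 and C1qc), as for 33.0% of all genes tested (15.8% lower, 17.2% higher). The median change of the 10 genes was -0.63, against 0.02 over all genes tested. The IL-33 set differed: 6 of the 10 rose in the labelled knockout (C1qa, C1qb, C1qc, Adgre1, Csf1r and Lyz2), 3 fell (Cd14, Cd68 and Il34) and Csf1 did not pass. Over all 14513 genes of that set, 22.2% were called higher and 16.8% lower (39.1% in either direction), and the medians were 1.30 for the 10 genes and 0.04 for all. The groups did not overlap for 9 of the 10 genes, 6 of them higher and 3 lower, against 54.6% of all genes (30.2% higher, 24.3% lower). Lyz2 and Adgre1 therefore fell in one comparison and rose in the other, and Cd14 and Cd68 fell in both. In bulk tissue, fewer cells of a type and less RNA per cell cannot be told apart.

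**Figure D1:**
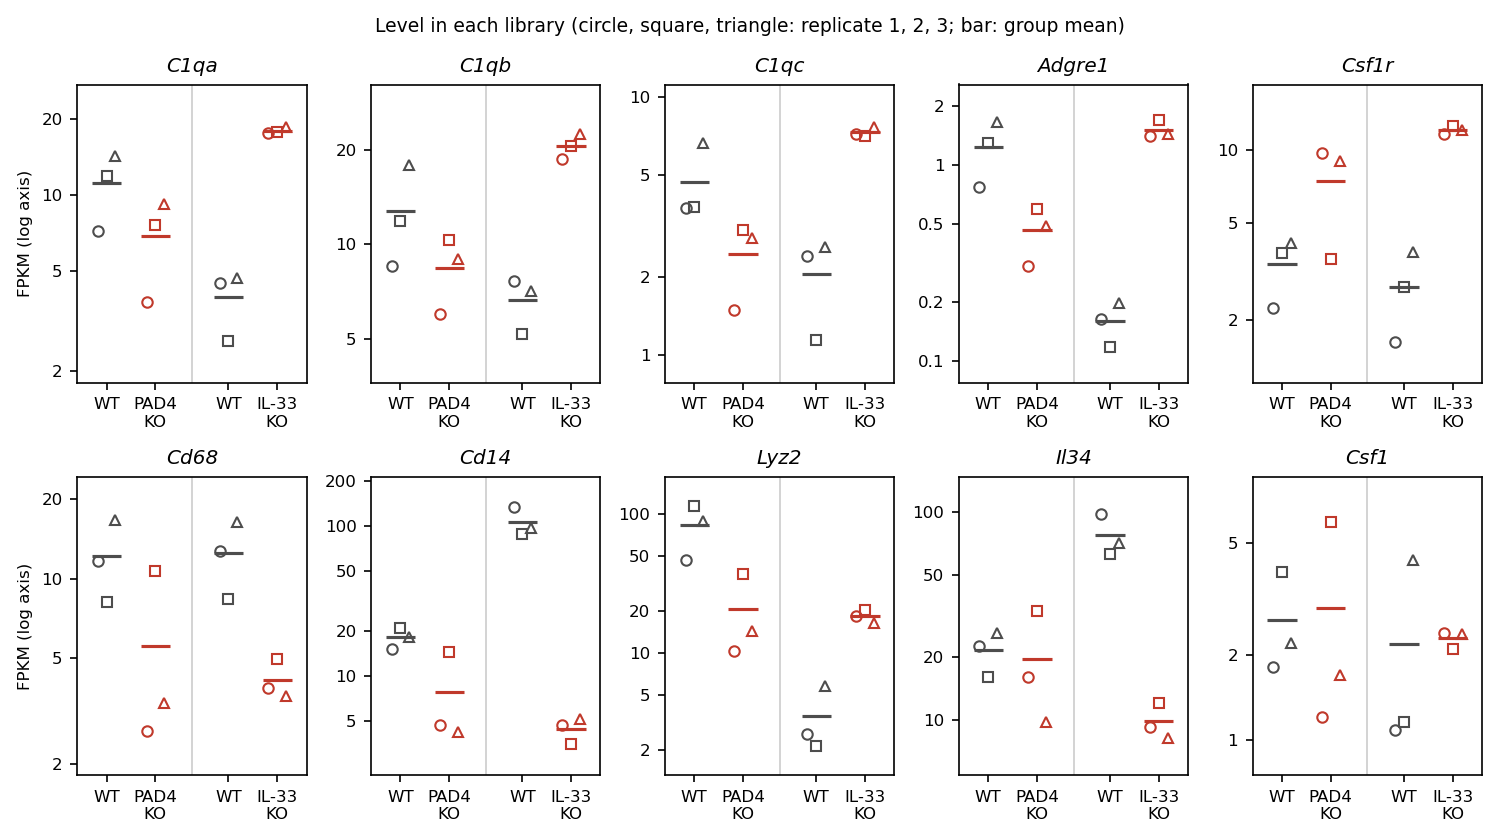
FPKM of each of the 10 genes (vertical axis, log scale) in every library of the 4 groups (horizontal axis); points are libraries (wild type grey, knockout red) and bars are group means. In the IL-33 set the 3 libraries labelled knockout lie above all 3 wild-type libraries for 6 genes and below them for Cd14, Cd68 and Il34, while in the PAD4 set the groups are apart for 4 genes.

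The C1q genes rose together in the labelled IL-33 knockout. For C1qa (ENSMUSG00000036887), the A chain, wild-type libraries read 4.46, 2.64 and 4.67 FPKM and labelled knockout libraries 17.65, 17.7 and 18.7 FPKM. The groups did not overlap, and the knockout libraries differed little among themselves (SD 0.592 FPKM around a mean of 18.04). The change was 1.98 ± 0.17 (SE), limma adjusted p = 0.000183. C1qb (ENSMUSG00000036905), the B chain, was at 7.64, 5.20 and 7.13 FPKM and then 18.7, 20.5 and 22.5 FPKM, and C1qc (ENSMUSG00000036896), the C chain, at 2.41, 1.14 and 2.61 FPKM and then 7.18, 7.10 and 7.65 FPKM. Each labelled knockout library was above each wild-type library for both chains. Their changes were 1.51 ± 0.15 (adjusted p = 0.000281) and 1.48 ± 0.20 (adjusted p = 0.00112). The exact two-sided permutation test gave p = 0.1 for every gene whose groups did not overlap, which is the smallest that 3 libraries against 3 can give.

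None of the C1q genes passed the test in the PAD4 set, although all 3 had lower knockout means. C1qa read 7.21, 11.9 and 14.3 FPKM among wild types and 3.75, 7.63 and 9.19 FPKM among knockouts, and C1qb 8.50, 11.85 and 17.9 FPKM and then 6.01, 10.3 and 8.99 FPKM. For both chains knockout libraries 2 and 3 lay above wild-type library 1. The changes were -0.65 ± 0.32 (adjusted p = 0.177) and -0.51 ± 0.31 (adjusted p = 0.272). Wild-type libraries held C1qc at 3.70, 3.73 and 6.63 FPKM and knockout libraries at 1.48, 3.06 and 2.84 FPKM, with no overlap (-0.71 ± 0.26, adjusted p = 0.0702). Without knockout library 2, which was the highest of its group for 8 of the 10 genes, C1qc passed (-0.84, adjusted p = 0.0187), and it also passed among genes with a mean of at least 2 FPKM (-0.71, adjusted p = 0.0478). C1qc ran at 0.315, 0.219 and 0.366 of C1qb in the wild type of the IL-33 set and at 0.384, 0.346 and 0.340 in its labelled knockout, so this ratio overlapped between the groups. The C1qa to C1qb ratio did not overlap there, at 0.583, 0.507 and 0.654 and then 0.944, 0.863 and 0.831, and overlapped in the PAD4 set.

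Among the surface receptors, Adgre1 and Csf1r went with the C1q genes in the IL-33 set and Cd14 went the other way. Adgre1 (ENSMUSG00000004730), which encodes the macrophage adhesion receptor F4/80, read 0.163, 0.118 and 0.198 FPKM for the wild types and 1.40, 1.69 and 1.44 FPKM in the labelled knockout libraries. Its mean was 9.42 times higher, from a wild-type level near the lower end of what was measured. On the log2(FPKM + 1) scale, which understates changes at low FPKM, the change was 1.11 ± 0.11 (adjusted p = 0.000296). The wild-type mean, 0.160 FPKM, is under the filter, so the gene was tested only because the labelled knockout is high (1.51 FPKM). Csf1r (ENSMUSG00000024621) was at 1.63, 2.74 and 3.82 FPKM and then 11.7, 12.7 and 12.1 FPKM, with no overlap and a mean 4.46 times higher (1.86 ± 0.21, adjusted p = 0.00049). Cd14 (ENSMUSG00000051439) stood at 134, 88.4 and 97.7 FPKM for the wild types and at 4.72, 3.49 and 5.16 FPKM in the labelled knockout libraries. Every wild-type library was thus far above every labelled knockout library, with a wild-type mean 23.9 times higher, and its change of -4.29 ± 0.18 (adjusted p = 1.24e-05) had the rank 22 by adjusted p among all genes tested.

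In the PAD4 knockout Adgre1 and Cd14 fell, and Csf1r did not pass. Adgre1 read 0.771, 1.30 and 1.65 FPKM among wild types and 0.304, 0.595 and 0.489 FPKM among knockouts, with no overlap (-0.60 ± 0.19, adjusted p = 0.0337). It was tested only through the wild type (mean 1.24 FPKM), as the knockout mean of 0.463 FPKM is under the filter, and with no filter the adjusted p was 0.187. Cd14 was at 15.2, 21.0 and 18.3 FPKM and then 4.70, 14.5 and 4.25 FPKM. Knockout library 2 lay just under the lowest wild-type library and the other 2 far below (-1.30 ± 0.35, adjusted p = 0.0156). Csf1r ran the other way, with wild-type libraries at 2.24, 3.79 and 4.13 FPKM and knockout libraries at 9.77, 3.57 and 9.07 FPKM. Knockout libraries 1 and 3 were above all wild-type libraries and library 2 was among them (0.88 ± 0.31, adjusted p = 0.0570). Without knockout library 2 the change of Csf1r was 1.28 (adjusted p = 0.00035), and without wild-type library 2 it was 0.96 (adjusted p = 0.0357). That knockout library also had the highest colon (298 FPKM) and lung (208 FPKM) marker sums of its group.

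With no filter no gene was called in the PAD4 set, with adjusted p of 0.142 for Lyz2, 0.198 for Cd14 and 0.284 for Cd68. Leaving out a library ended the PAD4 calls of Adgre1, Cd14 and Cd68. Adgre1 had an adjusted p of 0.0635 without wild-type library 2, 0.124 without wild-type library 3, 0.126 without knockout library 1 and 0.0745 without knockout library 3. For Cd14 it was 0.0854 and 0.0822 without wild-type libraries 1 and 3, and 0.0750 without knockout library 3. Cd68 had 0.178 and 0.200 without wild-type libraries 1 and 3, and 0.0647 and 0.110 without knockout libraries 1 and 3. Median-of-ratios scaling and quantile normalization ended the calls of Cd14 (-1.31 and -1.39, adjusted p = 0.0593 and 0.0555) and Cd68 (-1.15 and -1.18, adjusted p = 0.111 and 0.107), with changes about as large as those reported. Of the 4 genes called, Lyz2 alone passed in all 6 such fits. All 9 genes called in the IL-33 set passed in each of its 6.

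Lyz2 (ENSMUSG00000069516) moved in opposite directions in the comparisons, and Cd68 (ENSMUSG00000018774) fell in both. For Lyz2, wild-type libraries of the PAD4 set read 46.4, 114 and 89.5 FPKM and knockout libraries 10.3, 37.3 and 14.5 FPKM, without overlap. The wild-type mean was 4.02 times higher, and the change was -2.06 ± 0.42 (adjusted p = 0.00253). Those of the IL-33 set read 2.61, 2.16 and 5.82 FPKM, and its labelled knockout libraries 18.5, 20.5 and 16.3 FPKM (2.18 ± 0.27, adjusted p = 0.000786), a mean 5.23 times higher. Lyz1, a near-identical neighbour that marks Paneth cells of the gut, read 3.39, 9.33 and 4.40 FPKM for wild types of the PAD4 set and 0.738, 2.22 and 0.668 FPKM in its knockout libraries (-1.57 ± 0.31, adjusted p = 0.00185). It ran at 4.60% to 8.18% of Lyz2 there, and no IL-33 set library was above 0.0897 FPKM. The sources used here do not say how reads shared by both copies were counted, so Lyz2 is uncertain in the PAD4 set. Neutrophils express Lyz2 as well: their markers summed to 53.1 to 175 FPKM per wild-type library and 9.93 to 62.7 FPKM per PAD4 knockout library, with 4 of 8 tested genes lower. Their IL-33 set sums were 3.04 to 7.69 FPKM and then 5.13 to 7.66 FPKM, and 0 of 4 tested genes passed.

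Cd68 stood at 12.7, 8.33 and 16.3 FPKM for wild types of the IL-33 set and at 3.85, 4.98 and 3.60 FPKM in the labelled knockout libraries, with no overlap and a wild-type mean 3.00 times higher (-1.35 ± 0.22, adjusted p = 0.00281). Set against C1qb within each library, it fell from ratios of 1.66, 1.60 and 2.28 in wild type to 0.206, 0.242 and 0.160. The PAD4 set had 11.6, 8.14 and 16.6 FPKM and then 2.65, 10.7 and 3.39 FPKM (-1.15 ± 0.37, adjusted p = 0.0364). Here knockout library 2 lay above wild-type library 2, so the groups overlapped. The direction of Cd68 therefore matched that of Cd14, and not that of the C1q genes, in the IL-33 set.

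**Figure D2:**
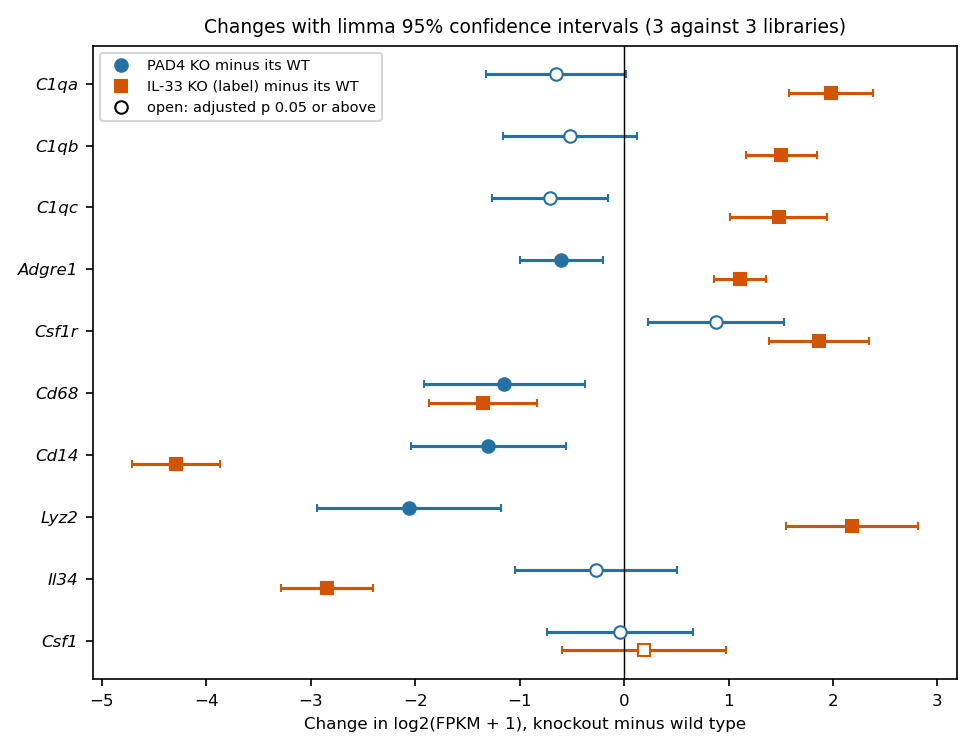
Change of each gene (horizontal axis, log2(FPKM + 1), knockout minus wild type) with its 95% confidence interval from limma, for the PAD4 (circles) and the IL-33 (squares) comparison; open symbols did not pass the threshold. The IL-33 intervals of 6 genes lie right of 0 and those of Cd14, Il34 and Cd68 left of it, and Cd14 reaches -4.29; the interval of Csf1 spans 0 in both comparisons.

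Of the ligands of CSF1R, Il34 fell in the labelled IL-33 knockout and Csf1 passed in neither comparison. Il34 (ENSMUSG00000031750) stood at 97.8, 62.8 and 71.1 FPKM for the wild types and at 9.25, 12.1 and 8.22 FPKM in the labelled knockout libraries. The groups were far apart, with a wild-type mean 7.84 times higher (-2.84 ± 0.19, adjusted p = 6.51e-05). Its PAD4 set values were 22.6, 16.1 and 26.2 FPKM and then 16.1, 33.3 and 9.76 FPKM, with the highest and the lowest value both in the knockout (-0.27 ± 0.37, adjusted p = 0.688). Csf1 (ENSMUSG00000014599) was at 1.82, 3.96 and 2.20 FPKM and then 1.21, 5.95 and 1.70 FPKM in the PAD4 set (-0.04 ± 0.33, adjusted p = 0.959). The 95% interval of that change runs from -0.74 to 0.66. The IL-33 set had Csf1 at 1.09, 1.16 and 4.36 FPKM among wild types and 2.41, 2.11 and 2.38 FPKM among labelled knockouts. Wild-type library 3 stood above all others and the other 2 below them (0.19 ± 0.34, adjusted p = 0.687); without it Csf1 was called higher (0.63, adjusted p = 0.00584).

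Il34 was the more abundant ligand transcript per length in all 12 libraries. The Il34 to Csf1 ratio of the IL-33 set was 89.8, 54.2 and 16.3 in wild-type libraries and 3.84, 5.73 and 3.45 in labelled knockout libraries, so all 3 labelled knockout libraries were lower. Il34 made up 94.2% to 98.9% of the summed FPKM of both ligands in that wild type and 77.5% to 85.2% in the labelled knockout. That sum was 63.9 to 98.9 FPKM and then 10.6 to 14.2 FPKM. Thus the summed ligand level and the level of the receptor Csf1r went in opposite directions there. The ratios of the PAD4 set, 12.4, 4.07 and 11.9 for wild types and 13.4, 5.59 and 5.72 for knockouts, overlapped.

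Genes on the opposite strand overlap Csf1r and Il34 in the GENCODE annotation, and the sources used here do not say whether counting used strand. Hmgxb3, across Csf1r, ranged from 0.835 to 1.37 FPKM over the PAD4 set and from 2.18 to 3.14 FPKM over the IL-33 set, and passed in neither. Gm15895, across Il34, read 8.70, 14.3 and 15.2 FPKM in wild-type libraries of the IL-33 set and 2.90, 3.99 and 3.40 FPKM in labelled knockout libraries (-1.60, adjusted p = 0.000911). In both groups it was below Il34. Its PAD4 set values were 4.63, 7.82 and 3.63 FPKM and then 7.02, 21.3 and 4.52 FPKM (adjusted p = 0.238), and knockout library 2 was the highest for it as for Il34.

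The order of the 10 genes by mean FPKM differed between the groups, and levels were compared within each group only. Among PAD4 set wild types Lyz2 led with a mean of 83.3 FPKM and its libraries lay above all of those of Il34, the next. Il34, Cd14, C1qb, Cd68 and C1qa followed, at means of 21.65 to 11.1 FPKM, with each range overlapping that of its neighbour. In the PAD4 knockout, Lyz2 (20.7) and Il34 (19.7) overlapped, and every neighbouring pair down to C1qc did too. Among IL-33 set wild types Cd14 (107) and Il34 (77.2) led with overlapping ranges, and Cd68 (12.4) was apart from both. In the labelled knockout C1qb (20.6), Lyz2 (18.45) and C1qa (18.04) led with ranges that overlapped from each to the next, followed by Csf1r (12.2) and Il34 (9.85), while Cd14 (4.46) came after C1qc. Adgre1 was the lowest in all 4 groups, apart from its neighbour in each.

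The changes of the comparisons were then set against each other in a contrast of the 4 group means over the 13010 genes tested in both tables. Neither comparison uses the control libraries of the other, but set and batch cannot be told apart from the choice of knockout. The difference (IL-33 change minus PAD4 change) was positive and past the threshold for 5 genes: Lyz2 (4.25 ± 0.59, adjusted p = 0.000607), C1qa (2.63 ± 0.40, adjusted p = 0.00106), C1qc (2.19 ± 0.35, adjusted p = 0.00126), C1qb (2.02 ± 0.35, adjusted p = 0.00207) and Adgre1 (1.71 ± 0.22, adjusted p = 0.000374). It was negative for Cd14 (-2.99 ± 0.47, adjusted p = 0.0012) and Il34 (-2.57 ± 0.48, adjusted p = 0.0032). Adgre1 passed the filter in each set only through the group where it is high, so its call and the count of 5 are descriptions. Over all genes, 6.18% were called positive and 6.23% negative. These 804 and 811 calls make a share of 49.8% positive, which was 39.6% under median-of-ratios scaling; 5 and 2 of the 10 genes were called there too. Csf1r, Cd68 and Csf1 did not pass. For Cd68 the difference was -0.20, with a 95% interval from -1.32 to 0.91, and for Csf1 it was 0.23, from -0.97 to 1.43. The intervals are wide, so that these changes cannot be said to be alike.

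Receptor signalling and macrophage transcription factors were described from a list of 19 genes. Over all genes tested, 22.2% rose and 16.8% fell in the IL-33 set, and 8.89% rose and 8.79% fell in the PAD4 set. List counts here and in the paragraphs below stand beside these shares, and no list was tested as a set. The IL-33 set had 7 of 14 tested genes rise and 2 fall (median change 0.49). Spi1, which encodes PU.1, rose from 0.675, 0.128 and 0.839 FPKM to 2.04, 1.76 and 1.37 FPKM (0.84 ± 0.20, adjusted p = 0.0136, and 0.0531 both without labelled knockout library 1 and with no filter). Tyrobp, the signalling adaptor DAP12, rose by 1.05 ± 0.13 (adjusted p = 0.000655) and Maf, a transcription factor of resident macrophages that other cells also use, by 1.48 ± 0.14 (adjusted p = 0.000279). Tfec rose in both comparisons, by 0.89 in the IL-33 set and by 1.11 in the PAD4 set (adjusted p = 0.00573 and 0.000496). In the PAD4 set it was tested only through the knockout (mean 1.78 FPKM against 0.294 in wild type), and with no filter the adjusted p there was 0.0787. Cebpb, a transcription factor of inflammatory and of tubular cells, fell in both, with a change of -2.26 in the IL-33 set (adjusted p = 0.000103) and -1.11 in the PAD4 set (adjusted p = 0.0161). The PAD4 call was lost without each of wild-type libraries 1, 2 and 3 and without knockout library 3 (adjusted p up to 0.0931). Sdc1, which encodes syndecan-1, a further binding partner of IL-34, fell in both (-1.21 and -1.25, adjusted p = 0.00684 and 0.00548). The PAD4 call of Sdc1 had an adjusted p of 0.0502 without wild-type library 1. Of 16 tested genes in the PAD4 set 1 rose and 3 fell (median -0.39). The other that fell was Vav1 (-0.64, adjusted p = 0.0208), which passed only without knockout library 2 among the 6 fits that leave out a library. Spi1 and Tyrobp did not pass there (adjusted p = 0.0940 and 0.119), but did without knockout library 2 (0.0336 and 0.0228). Irf8 passed in neither set, and Trem2 and Ptprz1, a further receptor of IL-34, were below the filter in both.

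Among other colony-stimulating factors and their receptors, 1 gene passed in each comparison. Over all genes tested, 17.7% passed in the PAD4 set and 39.1% in the IL-33 set. Of 7 tested genes in the PAD4 set, 1 passed: Csf3, which encodes the granulocyte factor G-CSF, fell from 1.19, 1.79 and 2.21 FPKM to 0.190, 1.10 and 0.136 FPKM (-0.93 ± 0.23, adjusted p = 0.00873; 0.0690 if wild-type library 3 is left out). Of 6 in the IL-33 set, 1 passed: Flt3l, a dendritic cell growth factor, rose (0.59 ± 0.16, adjusted p = 0.0248). That call held in 2 of the 6 fits that leave out a library, those without wild-type library 1 or 3, and the highest adjusted p was 0.0834, without labelled knockout library 1. With no filter it was 0.0773.

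A list of 28 other macrophage and monocyte genes was described next. Of 17 tested in the PAD4 set 10 fell and 0 rose (median -0.82). Pf4, a chemokine of platelets and some macrophages, fell from 9.21, 6.60 and 6.76 FPKM to 1.91, 2.80 and 1.34 FPKM (-1.51 ± 0.25, adjusted p = 0.000639). Itgam (CD11b, of neutrophils and monocytes; -0.98), Ly6c2 (of monocytes; -0.92) and Lyve1 (of lymphatic endothelium and some macrophages; -1.44) fell too, and these 4 calls held in every fit that left out a library. Itgam and Ly6c2, like Vav1, Csf3, Tlr4 and Irak3 in this set, were tested only through the wild type. So was Mrc1, which also fell (-0.58, limma adjusted p = 0.0342) and passed in 2 of the 6 fits that leave out a library. List counts and medians that include a gene tested only through the group where it is high are descriptions. Ctss, the lysosomal protease cathepsin S, fell by 1.65 (adjusted p = 0.00569; 0.0665 if wild-type library 3 is left out). Of 13 tested in the IL-33 set, 4 rose and 2 fell (median 0.23). Cx3cr1, the fractalkine receptor of resident macrophages, rose from 0.0482, 0.0224 and 0.138 FPKM to 1.13, 0.847 and 1.19 FPKM (0.94 ± 0.12, adjusted p = 0.000838). Mpeg1 (perforin-2; 1.34, adjusted p = 0.00226) and Fcgr1 (the receptor CD64; 0.88, adjusted p = 0.00445) rose as well. Cx3cr1 and Fcgr1, with wild-type means of 0.0696 and 0.176 FPKM, passed the filter only through the labelled knockout. The count of 4 that rose is therefore a description. The genes that fell, Spp1 (osteopontin; -1.997, adjusted p = 0.000655) and Lgals3 (galectin-3; -1.09, adjusted p = 0.000732), are also made by injured tubules. Ccr2, of recruited monocytes, was below the filter in both sets. Its IL-33 set libraries read 0.145 to 0.309 FPKM among wild types and 0.620 to 0.743 FPKM among labelled knockouts.

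Among the proteases that join C1q in the C1 complex, the components downstream and complement receptors, the genes called were all higher in the IL-33 set and all lower in the PAD4 set; the difference between both was not tested for this list. Of 10 tested genes in the IL-33 set, 6 rose and 0 fell (median 0.70). They are the protease gene C1s1 (0.80, adjusted p = 0.00651), its inhibitor Serping1 (0.65, adjusted p = 0.0221), C2 (0.75, adjusted p = 0.0116), C3 (1.43, adjusted p = 0.00202), C4b (1.67, adjusted p = 0.00362) and the alternative pathway gene Cfb (1.26, adjusted p = 0.00041). Serping1 lost its call without wild-type library 1 or 2 or labelled knockout library 1 or 3 (adjusted p up to 0.0748) and with no filter (0.0684), and the other 5 held in all 6 such fits. Of 11 tested in the PAD4 set, 4 fell and 0 rose (median -0.78). C1s1 fell from 13.5, 26.8 and 16.7 FPKM to 3.74, 7.79 and 8.01 FPKM (-1.42 ± 0.32, adjusted p = 0.00538) and held whichever library was left out. C3 was at 56.2, 42.0 and 90.1 FPKM and then 13.3, 43.6 and 8.56 FPKM (-1.73 ± 0.45, adjusted p = 0.0114). Cd93 (-0.78, adjusted p = 0.0247) and C4b (-0.75, adjusted p = 0.0403) also fell. Without wild-type library 3 the calls of C3, Cd93 and C4b were lost (adjusted p 0.109, 0.0841 and 0.170). C3 was also lost without wild-type library 1 or knockout library 3, Cd93 without wild-type library 2 or knockout library 1 or 3, and C4b without wild-type library 1 or 2 or knockout library 1. Fibroblasts also make C1s, C1r and C3, and the fibroblast markers were lower in 5 of 6 genes in the PAD4 set (86.2 to 131 FPKM summed per wild-type library, 18.6 to 52.7 per knockout library) and higher in 3 of 6 in the IL-33 set (15.3 to 32.3 and 33.2 to 41.5 FPKM). Their part in these changes was not tested.

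On the log2(FPKM + 1) scale, which understates changes at low FPKM, partners of CD14 fell by less than Cd14 itself or did not pass. As ratios of means, the order was reversed for the genes called in the PAD4 set. There the wild-type mean was 3.48, 3.10 and 2.94 times the knockout mean for Lbp, Tlr4 and Irak3, and 2.33 times for Cd14. No such difference between genes was tested. Of 11 tested genes of the Toll-like receptor 4 pathway, 4 fell and 0 rose in the IL-33 set (median -0.30). Lbp, the lipopolysaccharide-binding protein that loads CD14, fell by 1.05 (adjusted p = 0.0128; 0.0529 with no filter), and the intracellular adaptors Myd88, Tirap and Ticam1 fell by 0.85, 0.66 and 0.48 (adjusted p = 0.00214, 0.0123 and 0.0103). The call of Tirap was lost without labelled knockout library 2 or 3 (adjusted p = 0.0503 and 0.0518). Tlr4 itself was at 0.617, 0.383 and 1.21 FPKM and then 0.706, 0.401 and 0.507 FPKM (-0.15 ± 0.18, adjusted p = 0.544), and its partner Ly96 (MD-2) did not pass either (adjusted p = 0.995). Of the same number in the PAD4 set, 3 fell and 0 rose (median -0.54): Lbp (-1.17, adjusted p = 0.00362), the inhibitory kinase gene Irak3 (-0.63, adjusted p = 0.0262) and Tlr4 (-0.54, adjusted p = 0.0313). Irak3 and Tlr4 were tested only through the wild type, so the count of 3 is a description. Of these genes, Lbp held whichever library was left out. Irak3 had an adjusted p up to 0.133 (without wild-type library 2) and held only without knockout library 2, and Tlr4 had up to 0.128 (without knockout library 1) and held only without wild-type library 1 or knockout library 2.

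Lysosomal genes other than Cd68 were mixed. Of 12 tested, 4 rose and 3 fell in the IL-33 set (median 0.15), where 22.2% of all genes tested rose and 16.8% fell. Hexa, which encodes a lysosomal hydrolase subunit, rose by 0.92 (adjusted p = 0.00056), while Ctsl (cathepsin L; -1.35), Ctsd (cathepsin D; -1.21) and Grn (progranulin; -0.91) fell (adjusted p = 0.000278, 0.000485 and 0.000537). The PAD4 set had 2 of 12 lower, Npc2, a cholesterol carrier, and Ctsl (-1.01 and -1.14, adjusted p = 0.0126 and 0.0137), and 0 higher (median -0.18). Npc2 was not called without wild-type library 3 (adjusted p = 0.0591) or knockout library 3 (adjusted p 0.0521), and Ctsl was not called in 4 of the 6 fits, those without a wild-type library or without knockout library 3 (adjusted p up to 0.0769).

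**Figure D3:**
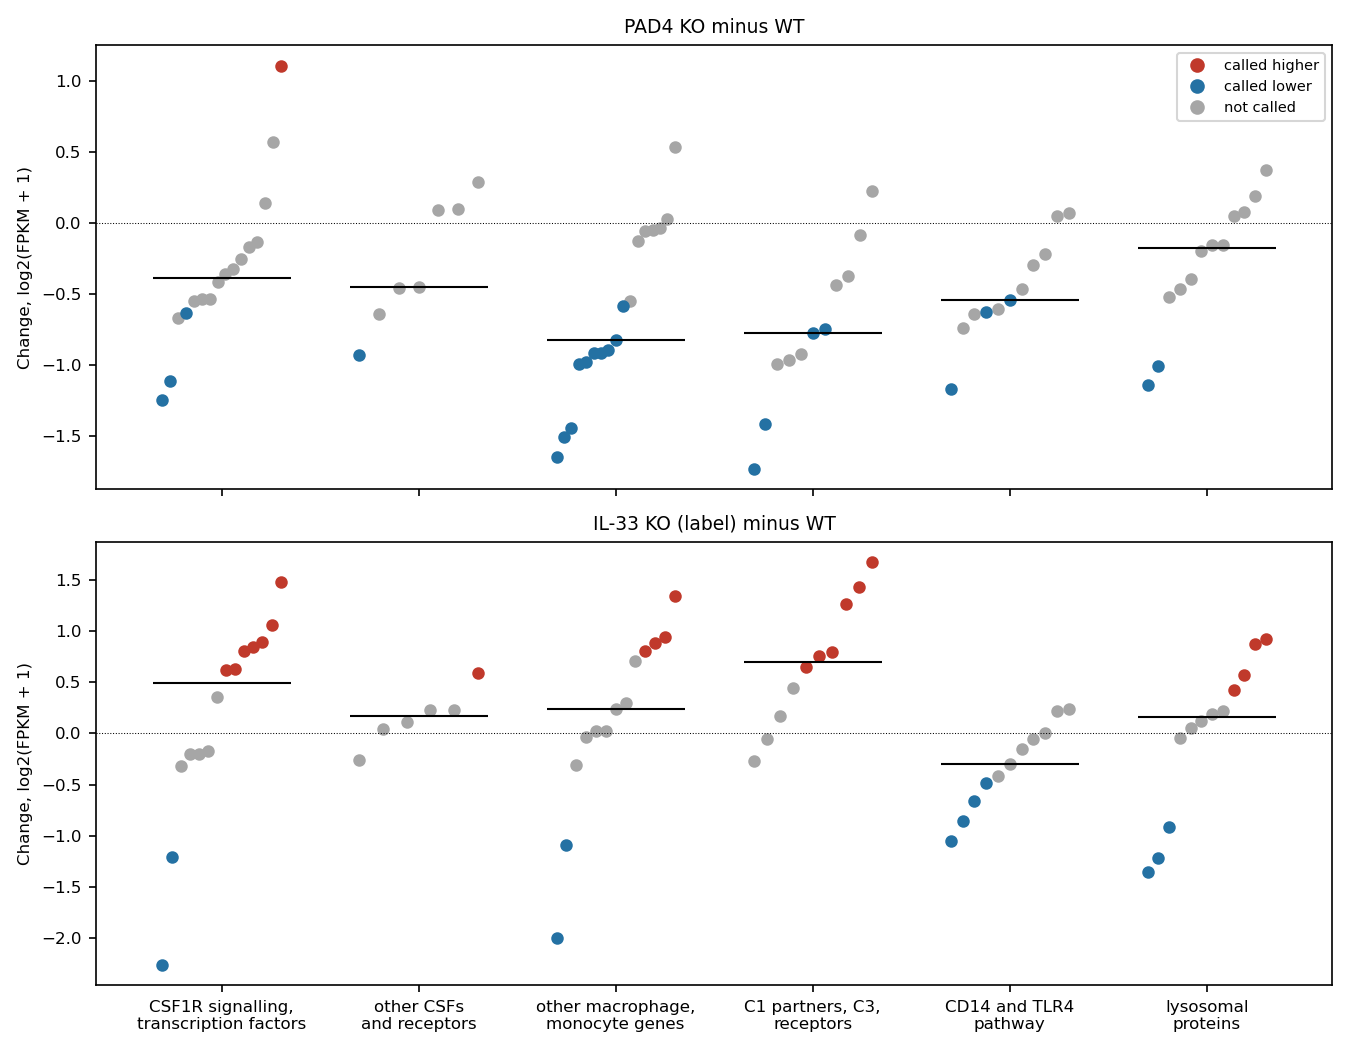
Change of each tested gene of the pathway lists (vertical axis, log2(FPKM + 1), knockout minus wild type; lists along the horizontal axis) in the PAD4 and the IL-33 comparison, with genes called higher in red, called lower in blue and the others in grey, and list medians drawn as bars. The complement partners lie mostly below 0 in the PAD4 comparison (median -0.78) and mostly above it in the IL-33 comparison (median 0.70).

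Markers of other cells give the setting of these values. Pan-leukocyte genes summed to 15.1 to 26.1 FPKM per wild-type library and 8.89 to 14.95 FPKM per PAD4 knockout library, with 2 of 5 tested genes lower. Their IL-33 set sums were 8.60 to 22.7 FPKM and 22.5 to 23.4 FPKM, with 2 of 5 higher. Ptprc, which encodes the leukocyte antigen CD45, was below the filter in both sets, at 0.419, 0.585 and 0.646 FPKM and then 0.0856, 0.258 and 0.162 FPKM in the PAD4 set, and at 0.230, 0.131 and 0.194 FPKM and then 0.457, 0.475 and 0.487 FPKM in the IL-33 set. In each set the groups were apart for it, in the direction of Adgre1. Alveolar macrophage genes were lower in 2 of 3 tested in the PAD4 knockout (12.2 to 52.3 FPKM summed, then 4.21 to 43.1 FPKM) and passed in 0 of 2 in the IL-33 set. Proximal tubule genes, the main cell mass of the cortex, were higher in 8 of 8 in the PAD4 set and in 6 of 9 in the IL-33 set, where 1 was lower. The part of any of these in the changes of the 10 genes was not tested.

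**Figure D4:**
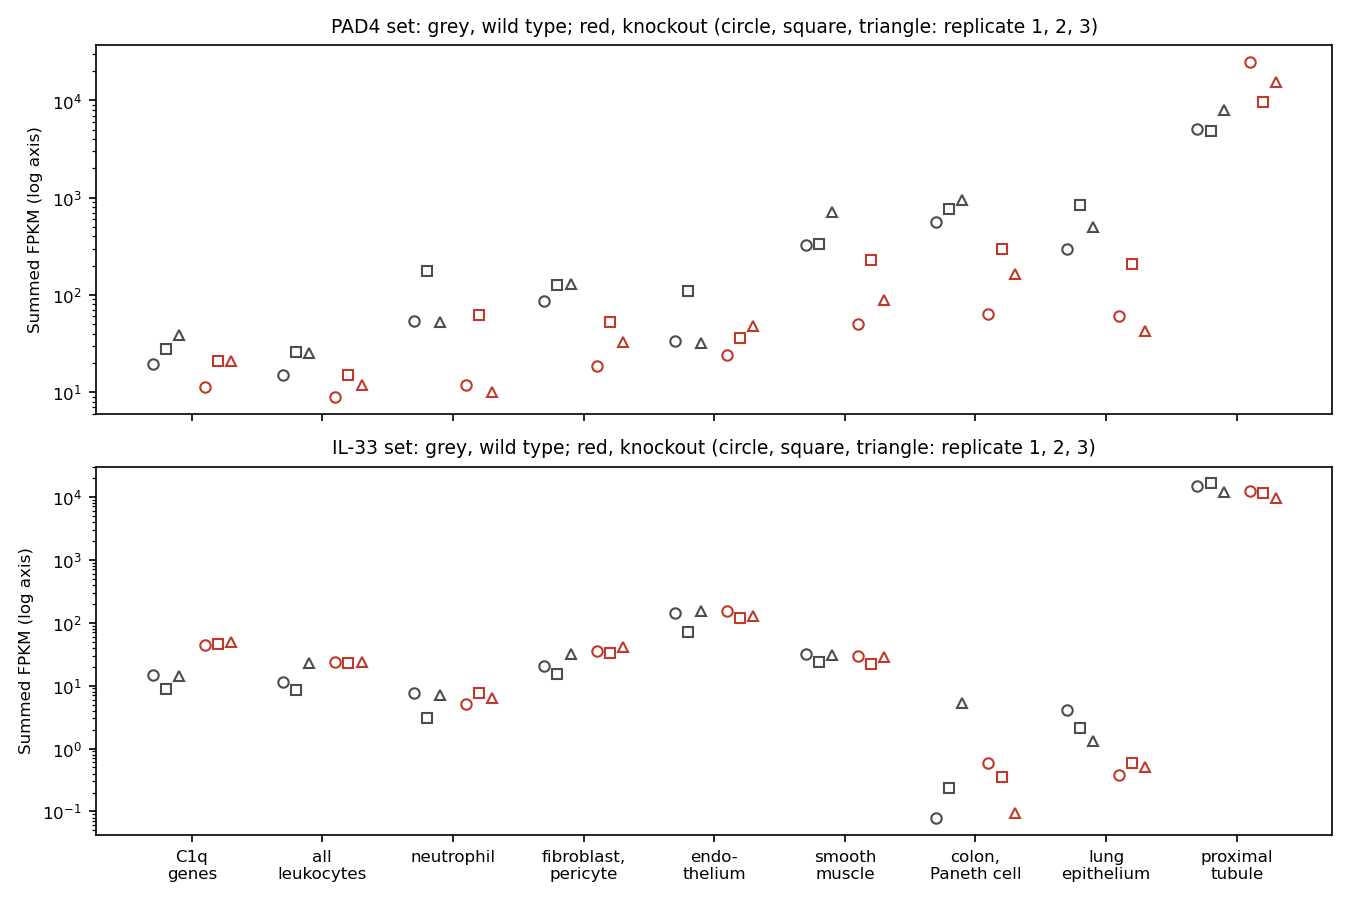
Summed FPKM (vertical axis, log scale) of the C1q genes and of marker genes of other cell types (horizontal axis) in each library, wild type in grey and knockout in red. Colon and lung markers stand between 42.5 and 939 FPKM in all 6 libraries of the PAD4 set, higher in wild type, and at 5.35 FPKM or less in those of the IL-33 set.

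Across the 6 libraries of each set the C1q genes and Adgre1 varied together, and Csf1r varied with them in the IL-33 set. On log2(FPKM + 1) values, Pearson's r between C1qa and C1qb was 0.928 in the PAD4 set and 0.996 in the IL-33 set, and between C1qa and Adgre1 0.875 and 0.983. Between C1qa and Csf1r it was -0.41 and 0.943. Between Cd14 and Il34 it was 0.669 and 0.985. Each is a description over 6 libraries that share the contrast between the groups, so a gene that differs between the groups has a large coefficient with any other that does. The tested genes outside the 10 with the values most like the mean of the C1q genes were, in the IL-33 set, Pgk1, Limch1, Fcgr2b, Sncaip and Eps8 (r 0.995 to 0.998), and in the PAD4 set Ighv1-72, Cdc42ep3, Mmp17, Col5a3 and Igkj2 (0.984 to 0.994). The genes most like Il34 were Snhg1, Prkab1, Prune1, Btg1 and Sidt2 in the IL-33 set and Alg13, Mast2, Cfap157, Hgsnat and Net1 in the PAD4 set.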

How the data were processed

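FPKM values were deposited by the authors in 1 table per set, where each library has its column, per the file headers. Libraries were made from poly(A) RNA and keep the strand, per the labels' protocols. Tools listed by the submitters' processing notes, without version or order, are HISAT2, StringTie, cutadapt, FastQC, edgeR and DESeq2. The build and annotation behind the values are not given in the labels or headers. FPKM carries no sequencing depth, so no counting interval is given. GENCODE gave symbols to 30212 of 32199 and 29690 of 31719 gene numbers. Columns of no sample numbered 0. The wild-type columns of the IL-33 table name the injury model without a genotype and were assigned to the group of that set which the name leaves.

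limma 3.58.1 (R 4.3.3, eBayes with trend) was run within each table on log2(FPKM + 1), over genes with a mean of at least 0.5 FPKM, two-sided, with p-values adjusted by Benjamini-Hochberg over every tested gene and a threshold of 0.05. Each group has 3 libraries, which the design text calls independent biological replicates. Fits were tested on simulated data. The members, lists and alternatives were chosen with earlier results of these data known. From each pathway list the text names a fixed set of regulators and up to 5 genes with the smallest adjusted p past the threshold.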

Additional observations from a re-analysis of the deposited data

Results flagged for a closer look

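The changes of 7 of the 10 genes differed between the comparisons by the contrast of the 4 group means (IL-33 change minus PAD4 change, log2(FPKM + 1) scale, limma adjusted p over 13010 genes). Over all of these genes, 12.4% were called in either direction (6.18% positive, 6.23% negative). The difference was 4.25 for Lyz2, 2.63 for C1qa, 2.19 for C1qc, 2.02 for C1qb and 1.71 for Adgre1. It was -2.99 for Cd14 and -2.57 for Il34. Adgre1 passed the filter in each set only through the group where it is high, so the count of 7 is a description. For each of the C1q genes the larger share of the difference comes from the IL-33 set, and for Lyz2 both changes are about equal in size and opposite (-2.06 and 2.18). Lyz2 is uncertain in the PAD4 set, as how reads shared with Lyz1 were counted is not known. All 11 colon and Paneth cell markers, Lyz1 among them, all 8 lung markers and 4 of 8 tested neutrophil markers fell there too. Their part in the change of Lyz2 was not tested. The sets were labelled as different batches, so batch and knockout cannot be told apart in these differences.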

How the results depend on the processing

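The IL-33 set gave 6 of the 10 genes higher and 3 lower, and the difference 5 positive and 2 negative, in every alternative run, except that with a mean of at least 2 FPKM, where Adgre1 is not tested, 5 were higher and 4 positive, that 7 were higher without wild-type library 3 (Csf1 added), and that 6 were positive with the block below. In the PAD4 set the 4 lower calls became 0 with no filter on level, and 2 under each of median-of-ratios scaling and quantile normalization (Cd14 and Cd68 lost) and eBayes with no trend (Adgre1 and Cd68 lost, adjusted p = 0.0873 and 0.0692), and ran from 1 to 5 when a library was left out. At 2 FPKM they were again 4, with C1qc in place of Adgre1. The 0 higher calls became 1 (Csf1r) with a mean of at least 2 FPKM and under TPM rescaling, and ran from 0 to 1 when a library was left out. Lyz2 lost its call only with no filter (adjusted p = 0.142). Over all genes of the PAD4 set, the 1243 higher calls became 0 with no filter and 1907 under quantile normalization (357 to 1788 leaving out a library), and the 1230 lower calls 0 with no filter and 762 at 2 FPKM (530 to 1755). Leaving out a library in the IL-33 set gave 2127 to 3851 higher (3226 reported) and 1550 to 2670 lower (2445). The 804 positive differences became 1369 with no filter, 375 at 2 FPKM, 1229 under median-of-ratios scaling and 1391 under quantile normalization, and the 811 negative ones 1877 and 1719 under these scalings and 532 to 1027 leaving out a library (532 without labelled IL-33 knockout library 1). The cause was not tested.

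Values that changed sign were all of genes that did not pass. Leaving out a library gave -0.71 to 0.12 for Il34, -0.54 to 0.29 for Csf1 and -0.10 to 0.29 for Ly96 in the PAD4 set. For the IL-33 set it gave -0.045 to 0.63 for Csf1, -0.30 to 0.036 for Tlr4 and -0.33 to 0.22 for Ly96, which was -0.042 under median-of-ratios scaling and -0.082 under quantile normalization. For the difference it gave -0.53 to 0.31 for Cd68 and -0.10 to 0.73 for Csf1.

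Replicate numbers occur in each group, but nothing says that they pair the mice, and deviations of same-numbered libraries had r of -0.016, -0.11 and -0.15 in the PAD4 set and -0.014, 0.13 and -0.0017 in the IL-33 set. With the replicate number as a block, 951 genes were higher and 1033 lower in the PAD4 set (0 and 4 of the 10 genes), 3065 and 2271 in the IL-33 set (6 and 3), and 941 and 878 for the difference (6 and 2). Csf1r then passed in the difference (adjusted p = 0.0444), Il33 passed in the IL-33 set (0.0408), and Cebpb, C4b, Npc2 and Ctsl did not pass in the PAD4 set (0.0996, 0.0538, 0.0708 and 0.0806).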

Other observations

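Set against Ptprc within each library, the 10 genes did not keep 1 ratio. In the IL-33 set Adgre1 ran at 0.710, 0.899 and 1.02 times Ptprc in wild type and at 3.06, 3.55 and 2.95 times in the labelled knockout, while C1qb ran at 33.2, 39.7 and 36.8 and then 41.0, 43.3 and 46.3 times. Cd14 went from 581, 675 and 504 to 10.3, 7.36 and 10.6 times. In the PAD4 set, Csf1r ran at 5.35, 6.47 and 6.40 times Ptprc in wild type and at 114, 13.9 and 56.1 times in the knockout, whereas the Lyz2 ratio overlapped between the groups (111, 195 and 139, then 121, 145 and 89.9). Ptprc was under 0.7 FPKM in all 12 libraries, so these ratios rest on a low denominator.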
